A study of Mus musculus with 8 samples.

Results

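The genes described here are Reg1, Reg3a, Reg3b and Reg3g, 4 of the 48440 genes in the deposited expression table, chosen by name as secreted lectins of the regenerating (Reg) family. Each symbol matched 1 Ensembl gene. The libraries come from jejunal epithelial cells of 8 female mice on a C57BL/6J background that all carry the Sox9-EGFP reporter and were all raised germ-free. In each of 4 littermate pairs (A to D), 1 animal was conventionalized and its littermate stayed germ-free. The conventionalized animal left the gnotobiotic facility at 8 to 10 weeks of age for a conventional animal house, was gavaged with a slurry of feces from the conventionally raised Sox9-EGFP colony, and was harvested 2 weeks later together with its germ-free littermate. Cells with a low reporter signal (Sox9-EGFP Low, a fraction enriched for crypt base stem cells) were sorted from both, leaving out dying cells (Annexin-V, Sytox-blue), endothelial cells (CD31) and leukocytes (CD45). Colonization and the change of animal house went together, so their effects cannot be told apart.

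Reg proteins are small C-type lectins that epithelial cells release into the gut lumen. Reg3g binds peptidoglycan and kills Gram-positive bacteria, and Reg3b acts mainly on Gram-negative bacteria. Bacteria raise both through MyD88 signalling in the epithelium and through interleukin-22 (IL-22) from lymphoid cells, which acts on the epithelium by STAT3. Reg1 is best known as a secreted protein of the exocrine pancreas and of regenerating gut epithelium. Reg3a is the least studied of the 4 in mice.

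The 4 genes lie together on chromosome 6 of GRCm38 (GENCODE M21). Reg3b (ENSMUSG00000071356.7, 78370657 to 78373466, plus strand), Reg3a (ENSMUSG00000079516.2, 78380709 to 78383827, plus strand) and Reg1 (ENSMUSG00000059654.7, 78422711 to 78428667, plus strand) are followed by Reg3g (ENSMUSG00000030017.2, 78466269 to 78468872, minus strand). With Reg3d and Reg2 between them, the 6 genes span 98.2 kb. The coding sequences of Reg3b and Reg3g were identical at 76.4% of 522 aligned bases, Reg3a matched Reg3b at 73.5% and Reg3g at 73.2%, and Reg1 matched the other members at 60.5 to 63.5%. No stretch of 100 bases, the length of the reads, was shared between the transcripts of any pair of members. The longest identical stretch was 35 bases, between Reg3b and Reg3g, so reads trimmed to near that length could still be assigned to the wrong gene.

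The sequence just before the annotated start is shown for Reg3b and Reg3g, the members that rose in conventionalized animals, and for Reg3a, which did not pass the test. Each line gives 250 bases upstream of the RefSeq start on the strand of the gene (GRCm38.p6), and capitals mark runs of at least 10 bases shared by the Reg3b and Reg3g windows. They cover chr6:78370635-78370884 (plus strand) for Reg3b, chr6:78468875-78469124 (minus strand) for Reg3g and chr6:78380459-78380708 (plus strand) for Reg3a. The RefSeq starts of Reg3b and Reg1 lie inside the GENCODE gene spans given above. Most of the Reg3b window and all of the Reg1 window searched below therefore fall within those spans.
Reg3b: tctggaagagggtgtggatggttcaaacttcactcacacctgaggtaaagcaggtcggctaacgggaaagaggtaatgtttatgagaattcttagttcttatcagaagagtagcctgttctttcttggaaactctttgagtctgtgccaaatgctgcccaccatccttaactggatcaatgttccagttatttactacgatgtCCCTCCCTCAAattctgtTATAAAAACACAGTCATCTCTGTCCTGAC
Reg3g: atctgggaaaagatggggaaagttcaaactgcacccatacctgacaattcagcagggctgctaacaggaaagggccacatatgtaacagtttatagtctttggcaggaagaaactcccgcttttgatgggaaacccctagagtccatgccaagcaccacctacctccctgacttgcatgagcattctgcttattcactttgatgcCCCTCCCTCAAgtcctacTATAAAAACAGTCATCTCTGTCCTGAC
Reg3a: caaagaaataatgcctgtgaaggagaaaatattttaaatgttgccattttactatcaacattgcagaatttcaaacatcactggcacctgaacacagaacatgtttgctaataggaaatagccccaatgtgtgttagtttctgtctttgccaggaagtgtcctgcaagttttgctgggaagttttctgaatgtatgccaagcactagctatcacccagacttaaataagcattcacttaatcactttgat

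Reg3b and Reg3g shared a 20-base run that ended at the start site in both, and 2 of 32851 annotated mouse windows of the same length held that run on either strand. A 10-base run holding a TATA sequence began 29 bases before the start of Reg3b and 27 before that of Reg3g. An 11-base run began 47 and 45 bases before these starts. Over the whole window Reg3b and Reg3g were identical at 70% of 247 aligned bases, Reg3a and Reg3g at 71.5% of 193, and Reg3a and Reg3b at 65.1% of 186. Reg3a shared none of these runs within its window. With Reg3g it shared an 11-base run, found in 10 of all windows, that began 57 bases before the start of Reg3a and 105 before that of Reg3g. A 10-base run shared by these 2 genes began 10 and 57 bases before their starts. It ends the Reg3a window, while in Reg3g the TATA sequence and the runs shared with Reg3b come after it. The Reg3a window thus stops short of the matching stretch, and whether Reg3a holds these sequences further on was not looked at. The sequence TATAAA, searched on both strands, was in the windows of Reg1, Reg3b and Reg3g, and in 12.4% of all windows. It was also in that of Reg2, which had almost no reads here. The STAT motif TTCNNNGAA was in the window of Reg3b, 129 bases before its start, and in 7.0% of all windows. The NF-kB consensus was in that of Reg3g, 123 bases before its start, and in 7.3% of all windows. These are matches of letters and no binding was measured.

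Depth, taken as the deposited total over the smallest step between values in each library (approximate reads), ran from 6209041 to 19139683. The germ-free library of pair C was the least deep and correlated least with its group, at a median of 0.792, against 0.871 to 0.943 for the other 7 libraries. The conventionalized library of pair A held 3.99% of its signal in goblet cell markers, against 0.187 to 0.969% in the other 7 libraries. Results that rest on these libraries are given with and without them. Sox9 was present in every library, at 252 to 517 CPM in conventionalized and 137 to 337 CPM in germ-free animals, and all 13 crypt base stem cell markers reached the minimum level for testing. Nothing in the labels describes more than 1 sample per animal, so the spread is between animals. Values below are CPM (counts relative to the library total) scaled between libraries with TMM factors, as mean ± SD over 4 animals per group. Log2 fold changes, conventionalized over germ-free, are on the log2(CPM + 0.5) scale and come from limma with Benjamini-Hochberg adjusted p-values. The fit covered 10053 genes that reached 10 CPM in 4 or more libraries. Folds within a pair are instead plain ratios of CPM, without the added 0.5. The median log2 fold change over these genes was 0.32, and 0.09 when libraries were scaled by total only.

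Reg3b and Reg3g were far higher in conventionalized animals and were the only genes with a log2 fold change of at least 4 (0.0199% of those tested). Reg1 was higher in the conventionalized littermate of each pair but did not pass the test unless littermates were compared with each other or germ-free animal A was left out. Reg3a differed little within pairs. By limma 2 members, Reg3b and Reg3g, were called higher and 0 lower, where 1.16% of 10053 genes were called higher, 3.76% lower and 4.92% in either direction. In all 4 pairs each of the 4 members was higher in the conventionalized littermate, as were 28.4% of the genes tested. Reg3b reached the minimum level in 6 libraries, Reg3g in 8, Reg1 in 5 and Reg3a in 3, so Reg3a was not in the fit and Reg3b and Reg1 entered it mainly through the conventionalized libraries.

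**Figure D1:**
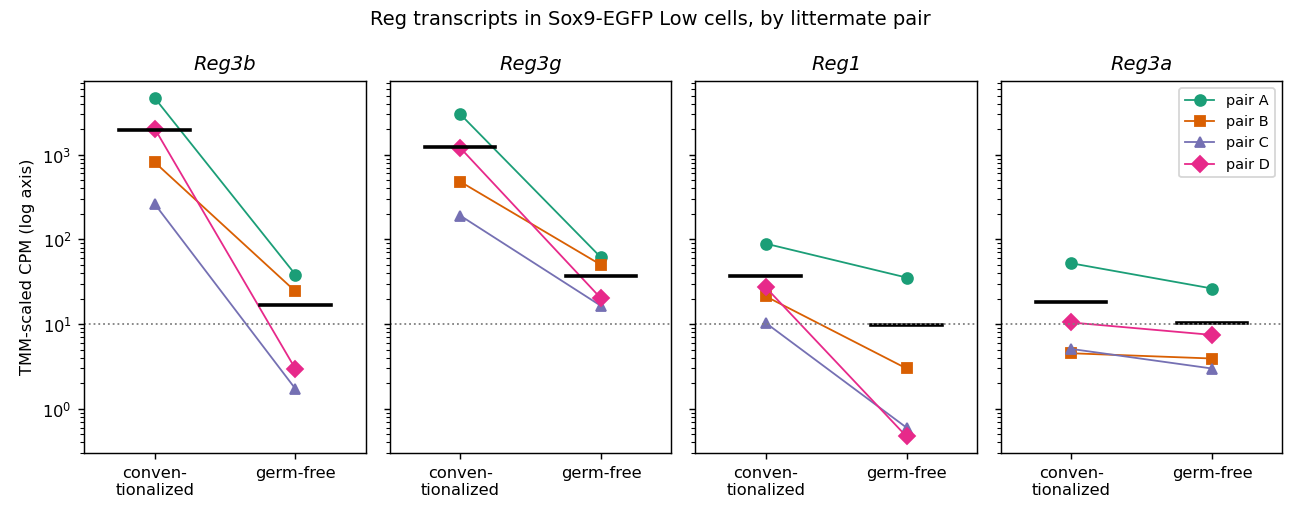
TMM-scaled CPM (log axis) of the 4 Reg genes in each library, conventionalized left and germ-free right, with lines joining littermates, black bars for group means and a dotted line at 10 CPM. Every conventionalized library lies above every germ-free library for Reg3b and Reg3g, while for Reg1 and Reg3a the groups overlap and both animals of pair A lie highest.

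Reg3b was at 4677, 815, 262 and 2035 CPM in conventionalized animals A to D, and at 38.3, 24.3, 1.71 and 2.945 CPM in germ-free animals A to D. The lowest conventionalized value was above the highest germ-free value, a separation seen in this direction in 9.03% of the genes tested and in the opposite direction in 5.88%. The germ-free values rested on few reads, about 15 in pair C and 33 in pair D, while the conventionalized values rested on 2838 to 57123. The group means were 1947 ± 1965 and 16.8 ± 17.7 CPM, with log2 fold change 7.01 (SE 0.99, adjusted p = 0.00577 by limma). Blocking on the littermate pair gave an adjusted p of 0.000452 and an SE of 0.51. Within pairs Reg3b was 122-fold, 33.6-fold, 153-fold and 691-fold higher in the conventionalized animal of pairs A, B, C and D.

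Reg3g was at 3015, 481, 191 and 1207 CPM in conventionalized animals A to D, and at 61.1, 50.0, 16.4 and 20.1 CPM in germ-free animals A to D. Here too the groups did not overlap, and Reg3g was the member with the highest level in each germ-free library. Group means were 1223 ± 1268 and 36.9 ± 22.1 CPM, with log2 fold change 4.56 (SE 0.70, adjusted p = 0.00577 by limma, 0.000797 with the block). Within pairs Reg3g was 49.3-fold, 9.61-fold, 11.7-fold and 60.1-fold higher in the conventionalized animals of pairs A, B, C and D. On leaving out germ-free animal C, the adjusted p was 0.0622 for Reg3b (log2 fold change 6.32) and 0.0995 for Reg3g (4.25). Leaving out conventionalized animal A as well, it was 0.138 for Reg3b (5.67) and 7.06e-05 for Reg3g (3.59), and it was 0.0538 for Reg3b with no filter on low values.

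Reg1 was at 89.1, 21.3, 10.3 and 27.1 CPM in conventionalized animals A to D, and at 35.4, 2.99, 0.599 and 0.470 CPM in germ-free animals A to D. The germ-free animal of pair A had more Reg1 than the conventionalized animals of pairs B, C and D, so the groups overlapped. Means were 36.9 ± 35.4 and 9.87 ± 17.1 CPM, with log2 fold change 3.02 (SE 0.97, adjusted p = 0.0894 by limma), the 4th largest of the genes tested. With the littermate pair as a block, Reg1 rose (SE 0.53, adjusted p = 0.00652 by limma), and that fit called 8.08% of the genes higher and 5.02% lower. On leaving out germ-free animal A, the log2 fold change was 4.16 and the adjusted p 0.0176. It was 1.87 with sample quality weights (adjusted p = 0.343 by limma) and 1.91 without conventionalized animal A and germ-free animal C (adjusted p = 0.64). Within pairs Reg1 was 2.52-fold, 7.12-fold, 17.2-fold and 57.7-fold higher in the conventionalized animals of pairs A, B, C and D, and the values of pairs C and D are set against about 5 reads in the germ-free animal.

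Reg3a was at 52.2, 4.52, 5.08 and 10.4 CPM in conventionalized animals A to D, and at 26.3, 3.92, 2.98 and 7.44 CPM in germ-free animals A to D. The groups overlapped throughout, and the same pair held the highest library of each. Its log2 difference was 0.58 (exact two-sided permutation of the 8 libraries, p = 0.543, the smallest possible being 0.0286). Within pairs Reg3a was 1.99-fold, 1.15-fold, 1.703-fold and 1.402-fold higher in the conventionalized animals of pairs A, B, C and D. Exact within-pair sign flips gave p = 0.125, the smallest that 4 pairs allow. Without conventionalized animal A the log2 difference was -0.20, and without germ-free animal C as well it was -0.54.

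**Figure D2:**
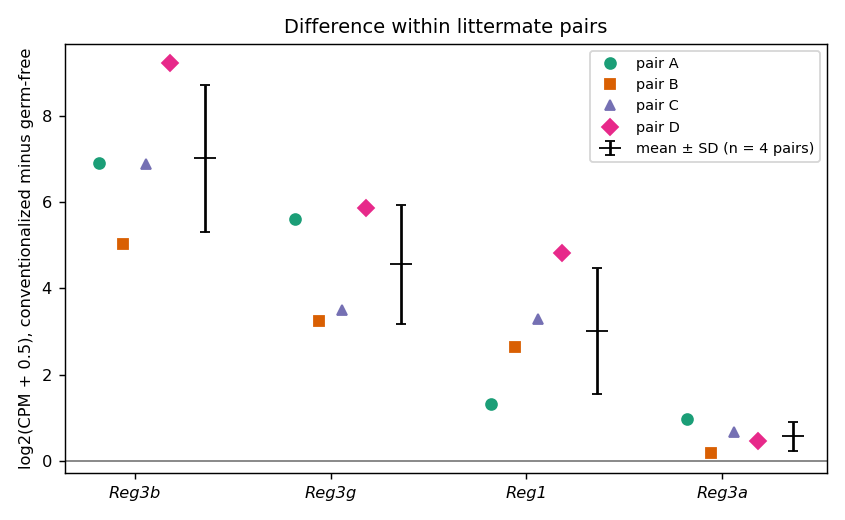
Difference in log2(CPM + 0.5) between the conventionalized and the germ-free littermate of each pair, for each Reg gene, with the mean and SD over 4 pairs in black. All 16 differences are above 0, and the Reg3a values (0.18 to 0.98) lie below the lowest value of each other gene.

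**Figure D3:**
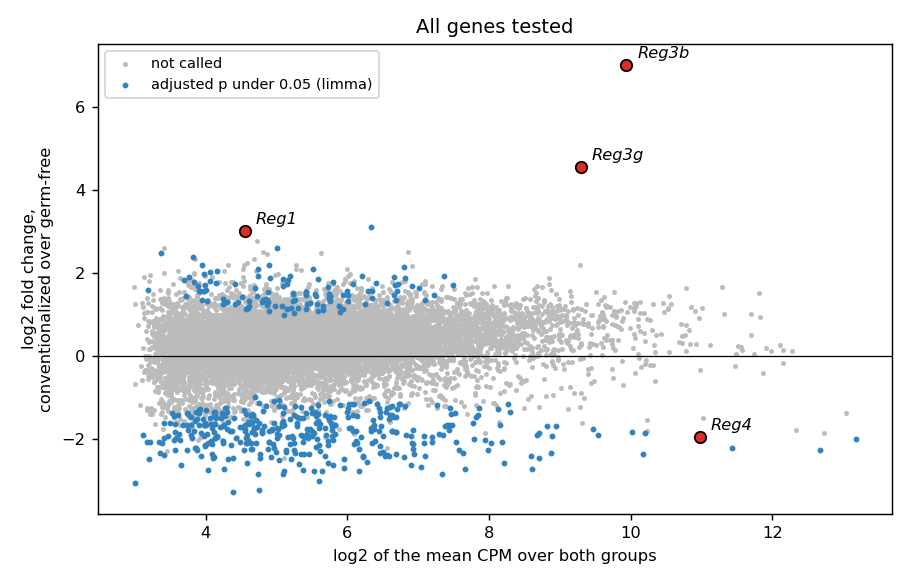
Log2 fold change of conventionalized over germ-free against the log2 of the mean CPM for the 10053 genes tested, with genes called by limma in blue and Reg genes in red whether called or not. Reg3b (7.01) and Reg3g (4.56) lie above all other genes, and no other gene reached a log2 fold change of 4.

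The members responded to different degrees. The log2 ratio of Reg3b to Reg3g was 0.63, 0.76, 0.46 and 0.75 in conventionalized animals A to D, and -0.67, -1.03, -2.93 and -2.58 in germ-free animals A to D. Reg3b was the more abundant transcript of the pair in every conventionalized library and Reg3g in every germ-free library. The mean ratio was 0.65 ± 0.14 and -1.80 ± 1.1 (log2, SD, n = 4), a difference of 2.45 (exact two-sided permutation p = 0.0286, the smallest possible, and 0.125 with within-pair sign flips, also the smallest possible). Of the 6 ratios between members, each had the gene with the larger fold change on top. Each was higher in the conventionalized animal in all 4 pairs. The ratios share the same 4 genes, so they are not independent results, and all but Reg3b to Reg3g were added after the values were seen. Exact permutation gave p = 0.0286, or 0.0343 adjusted over the 6, for 5 of them, and only the ratio of Reg3g to Reg1 did not pass, with a difference of 1.54 (exact permutation p = 0.0571). The largest difference was that of Reg3b to Reg3a, at 6.44 on the log2 scale. The ratio of Reg1 to Reg3a differed by 2.45, with means of 1.29 ± 0.60 and -1.15 ± 1.52 (conventionalized, germ-free, exact permutation p = 0.0286). Its germ-free mean rests largely on animals C and D (-1.67 and -3.03). There Reg1 had about 5.2 reads and a CPM near the added 0.5, so the size of the difference is uncertain.

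Levels were compared between genes per kilobase of transcript. In each conventionalized library the order was Reg3b, Reg3g, Reg1, Reg3a, with means of 2487 ± 2509, 1587 ± 1645, 40.9 ± 39.2 and 21.9 ± 27.8 CPM per kilobase. The ranges of neighbours in this order overlapped, except that every Reg3g value (248 to 3910) was above every Reg1 value (11.4 to 98.5). In each germ-free library Reg3g was highest, with a mean of 47.9 ± 28.6 CPM per kilobase, and the order of the others differed between animals. Reg3b averaged 21.5 ± 22.6, Reg1 10.9 ± 18.9 and Reg3a 12.3 ± 13.2 CPM per kilobase in germ-free animals. Reg3b was the transcript with the 15th highest CPM of all genes in the conventionalized library of pair A, and the 50th, 107th and 511th in those of pairs D, B and C. Its ranks in germ-free libraries ran from 5348 to 17358.

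The 4 genes together made up 0.598, 0.139, 0.0542 and 0.256% of the libraries of conventionalized animals A to D, and 0.0144, 0.00783, 0.00304 and 0.00354% of those of germ-free animals A to D. Reg3b gave 56.0 to 62.0% of this sum in conventionalized libraries, against 7.91 to 29.9% in germ-free libraries. Reg3g gave 36.4 to 40.8% in conventionalized and 37.9 to 75.6% in germ-free libraries. Reg3a gave 0.318 to 1.08% in conventionalized and 4.83 to 24.0% in germ-free libraries. Reg1 gave 0.828 to 2.20% in conventionalized libraries, and 22.0, 3.68, 2.76 and 1.52% in germ-free animals A to D. Between conventionalized animals the shares of Reg3b and Reg3g stayed within these narrow ranges, while the summed share of the library was 0.598% in the highest and 0.0542% in the lowest.

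**Figure D4:**
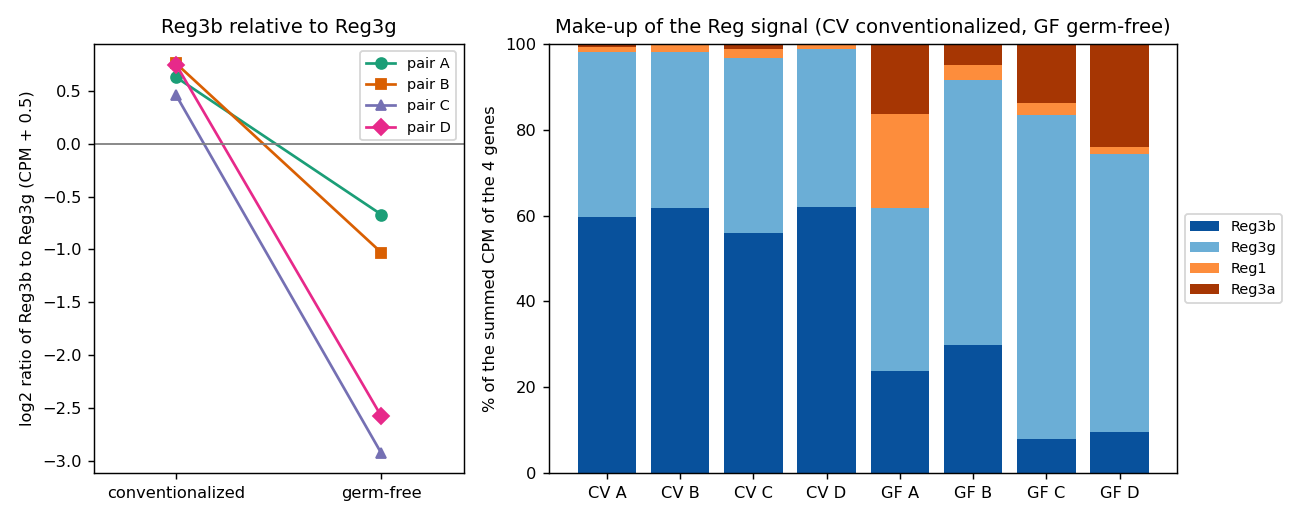
Left, log2 ratio of Reg3b to Reg3g in each library, with lines joining littermates, 0.46 to 0.76 in conventionalized and -2.93 to -0.67 in germ-free libraries. Right, share of each gene (%) in the summed CPM of the 4 genes, conventionalized libraries (CV) left of germ-free libraries (GF), with Reg3b at 56.0 to 62.0% in CV and 7.91 to 29.9% in GF.

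Animals of 1 group differed widely, and the highest animal of each group was the same for all 4 members. In conventionalized animals Reg3b, Reg3g and Reg1 each ran from highest to lowest in pairs A, D, B and C, and Reg3a in pairs A, D, C and B. In germ-free animals Reg3b and Reg3g ran in the order A, B, D and C, Reg1 in the order A, B, C and D, and Reg3a in the order A, D, B and C. Below pair A the order differed between members, more so in germ-free animals. The highest conventionalized value was 17.8 times the lowest for Reg3b, 15.8 times for Reg3g, 8.63 times for Reg1 and 11.6 times for Reg3a. Among germ-free animals the highest was 22.4 times the lowest for Reg3b, 3.73 times for Reg3g, 75.3 times for Reg1 and 8.81 times for Reg3a. Because Reg3b and Reg3g separate the groups and each group has 4 animals, correlations with them were not tested. For Reg1 and Reg3a over the 8 libraries, Pearson's r was 0.73 (exact permutation p = 0.0402) and Spearman's rho 0.74 (exact permutation p = 0.0458). Leaving out germ-free animals C and D, farthest from the median of Reg1, r was 0.86 (exact permutation p = 0.0236). Without both animals of pair A it was 0.39 (exact permutation p = 0.422), so the relation rests on that pair. This was the only such relation tested.

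Of the remaining Reg genes only Reg4 was abundant enough to compare. Reg4, a Reg gene found in enteroendocrine and other secretory cells, lies on chromosome 3. It was at 343, 292, 1814 and 1074 CPM in conventionalized animals A to D, and at 6632, 2546, 2438 and 1031 CPM in germ-free animals A to D. Means were 881 ± 717 and 3162 ± 2414 CPM, with log2 fold change -1.94 (SE 0.65, adjusted p = 0.0989 by limma, 0.0629 with the littermate block). Enteroendocrine markers took 1.24 to 2.68% of conventionalized and 5.33 to 9.96% of germ-free libraries, and their part in the Reg4 values was not tested. Reg2 had at most about 1 read and Reg3d at most about 3.6 reads in any library, so no fold is given for them and whether they differed is not known.

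The genes nearest in pattern to each member were ranked by Pearson's r of log2(CPM + 0.5) over the 8 libraries among the genes tested. These are descriptions, since the libraries share the 2 conditions. Nearest to Reg3b were Mcoln2, a cation channel of endosomes and lysosomes, Abhd4 and the glycosyltransferase B4galnt2 (r = 0.98 each), and Rmnd1 and the tRNA synthetase Cars (0.97 each). Nearest to Reg3g were Mcoln2, B4galnt2, Tm9sf1, Rmnd1 and the zinc transporter Slc39a4 (0.98 each). For deviations from the group means, r with Reg3g was 0.98 for Slc39a4, 0.96 for Tm9sf1 and 0.92 to 0.94 for the other 3. Reg3b and Reg3g had r = 0.99 with each other, and 0.94 for deviations from the group means. Nearest to Reg1 were Gm12226 (0.97), the mitochondrial deacetylase Sirt3, Zfp386 and Zfp946 (0.96 each) and Cldnd1 (0.95). A high r does not mean a rise of like size. Of these neighbours limma called only Mcoln2 (log2 fold change 1.26, adjusted p = 0.0323) and Cars (1.15, adjusted p = 0.0244). The log2 fold changes of the others ran from 0.29 for Zfp946 to 0.98 for Slc39a4, where the median over all genes tested was 0.32.

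Lists of 7 kinds around the Reg3 genes (signalling, transcriptional regulators, other targets of the same signals, receptor and heparan sulphate enzymes, and other antimicrobial proteins) held 81 tested genes. By limma 4 of the 81 were called higher and 0 lower, where 117 of all 10053 genes were called higher and 378 lower. Among 21 tested genes of Toll-like receptor and MyD88 signalling 1 rose and 0 fell (median log2 fold change 0.35, against 0.32 over all genes). It was Cd14, the coreceptor for lipopolysaccharide, at 24.1 ± 6.69 and 7.27 ± 6.11 CPM in conventionalized and germ-free animals. Its log2 fold change was 1.98 (SE 0.51, adjusted p = 0.0397 by limma, and 0.0563 with no filter). Cd14 reached the minimum level mainly through the conventionalized libraries, with germ-free animals A to D at 7.785, 15.67, 1.951 and 3.676 CPM. The adaptor Myd88 was at 57.8 ± 15.0 and 34.9 ± 13.5 CPM (adjusted p = 0.158 by limma). Of 13 tested genes of the IL-22 receptor, gp130 receptors and STAT3, limma called 0, 2 had an unadjusted p under 0.05 and 0 passed with the littermate block (median 0.15). Stat3 was at 74.3 ± 26.1 and 55.7 ± 13.5 CPM in conventionalized and germ-free animals (adjusted p = 0.423 by limma), and the receptor chain Il22ra1 at 4.67 ± 1.92 and 5.17 ± 2.57 CPM, under the minimum level. Of 7 tested IL-17 receptor genes limma called 0, and 1 had an unadjusted p under 0.05 (median 0.29). That gene was Cebpb, at 104 ± 49.8 and 46.8 ± 17.8 CPM, which rose with the block (adjusted p = 0.119, 0.0424 with the block).

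Other genes known to respond to IL-22 or STAT3 gave 1 call among 7 tested, and 0 fell (median 1.05). Duox2, an oxidase that makes hydrogen peroxide, was at 17.4 ± 7.28 and 3.31 ± 2.91 CPM in conventionalized and germ-free animals, a log2 fold change of 2.49 (SE 0.60, adjusted p = 0.0299 by limma). Duox2 reached the minimum level only through the conventionalized libraries. With the block, which called 8.08% of all genes tested higher, 3 rose. The others were the scavenger receptor Dmbt1 (adjusted p = 0.0124) and the adaptor Tifa (adjusted p = 0.0138). Dmbt1 was at 3119, 663, 199.5 and 396 CPM in conventionalized animals A to D and at 182, 190.4, 52.0 and 205.5 CPM in germ-free animals A to D. Its highest value was in the same animal as that of Reg3b and Reg3g. Among transcriptional regulators tied to Reg3 genes 1 of 16 rose and 0 fell (median 0.69). It was Nfil3, a circadian repressor, at 34.2 ± 11.1 and 14.5 ± 4.22 CPM (log2 fold change 1.20, SE 0.32, adjusted p = 0.0491 by limma). The call was lost with pseudocount 0.1 (0.0511), a minimum of 1 CPM (0.0641) and no filter (0.153). With the block 4 rose, namely Nfil3, the vitamin D receptor Vdr, the retinoic acid receptor Rara and its partner Rxra. In the list of the candidate receptor Extl3 and related heparan sulphate enzymes limma called 0 of 5, with 2 at an unadjusted p under 0.05 and 0 with the block (median 0.51). Ext1 had the lowest p there (33.6 ± 6.60 and 17.3 ± 4.36 CPM, adjusted p = 0.0773), and Extl3 was at 19.4 ± 2.38 and 21.3 ± 9.20 CPM (adjusted p = 0.922 by limma).

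Among 12 tested antimicrobial proteins outside the Reg family 1 rose and 0 fell (median 0.93). It was Mptx2, a pentraxin of Paneth cells, at 134, 227, 92.6 and 82.8 CPM in conventionalized animals A to D and at 52.3, 47.4, 5.74 and 2.24 CPM in germ-free animals A to D, a log2 fold change of 3.11 (SE 0.78, adjusted p = 0.037 by limma). The call was lost with library size scaling only (adjusted p = 0.0558 by limma), pseudocount 0.1 (0.0701), no filter (0.189), a minimum of 1 CPM (0.0731) and sample quality weights (0.184, log2 fold change 1.78). The groups did not overlap, and the order of Mptx2 among conventionalized animals was not that of the Reg3 genes. Mptx2 too entered the fit mainly through the conventionalized libraries. Lyz1, the Paneth cell lysozyme, was at 1736 ± 232 and 1658 ± 1084 CPM (adjusted p = 0.674). With the block 3 rose, the others being the peptidoglycan recognition protein Pglyrp1 and the inflammasome receptor Nlrp6. Over the 7 lists 12 of 81 tested genes rose with the block, where that fit called 8.08% of all genes higher. Without the block 0 to 5 were called when 1 library was left out, with 0 on leaving out any one conventionalized animal or germ-free animal D, 1 on leaving out germ-free animal A, and 3 without both libraries that stood apart. Part of this is a loss from the fit, since Duox2 stayed above the minimum level only when germ-free animal A was left out (log2 fold change 2.60, adjusted p = 0.0634 by limma). Cd14, Nfil3 and Mptx2 stayed in the fit but missed the threshold without any one conventionalized animal (adjusted p = 0.0712 to 0.171 by limma). Over all genes the calls fell there too, from 117 higher to between 14 and 32.

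Several cell types of the jejunum make Reg transcripts, and in sorted bulk cells a change in the share of a cell type cannot be told apart from a change in RNA per cell. Paneth cell markers made up 0.625 to 1.36% of conventionalized and 0.465 to 1.83% of germ-free libraries, and 1 of 16 tested was called higher, also with the block (Mptx2, which is also in the antimicrobial list), while 6 had an unadjusted p under 0.05. Goblet cell markers made up 0.187 to 3.99% of conventionalized and 0.393 to 0.969% of germ-free libraries, and limma called 0 of 13 (1 had an unadjusted p under 0.05, and 0 passed with the block). Absorptive enterocyte markers made up 0.146 to 0.368% of conventionalized and 0.271 to 0.560% of germ-free libraries, with 3 of 19 called lower and 4 with the block. Crypt base stem cell markers made up 0.452 to 1.08% of conventionalized and 0.149 to 0.583% of germ-free libraries, with 1 of 13 called higher and 0 lower. All 13 stem cell markers had a positive log2 fold change (median 1.35), and 8 had an unadjusted p under 0.05. With the block 5 of these markers rose, as did 8.08% of all genes tested. Enteroendocrine markers, whose shares are given above beside Reg4, had 12 of 21 called lower, and 16 with the block (median -1.80). The shares of the Paneth, goblet, enterocyte and stem cell lists overlapped between the groups, while those of the Reg genes and the enteroendocrine list did not. The part of these cell types in the Reg results was not tested. The conventionalized library of pair A was highest of its group for goblet markers and for the 4 Reg genes, while the germ-free library of pair A was lowest of its group for goblet markers (0.393%). For enterocyte markers, as for the 4 Reg genes, both animals of pair A were highest of their group, at 0.368% in the conventionalized and 0.560% in the germ-free animal. The next germ-free animal, of pair C, was close at 0.551%. Below pair A the orders differed. Enterocyte shares fell from pair C through D to B in both groups, while the summed Reg share was lowest in pair C of both. On leaving out conventionalized animal A, the log2 fold change was 6.33 for Reg3b (adjusted p = 0.0183 by limma) and 3.87 for Reg3g (adjusted p = 0.0166).

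**Figure D5:**
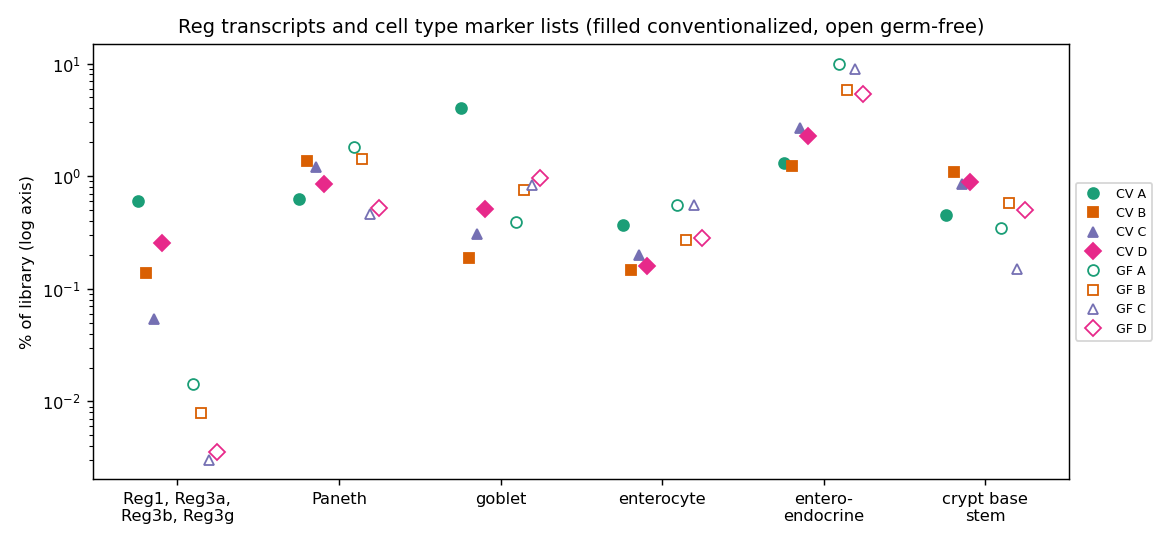
Share of each library (%, log axis) in the 4 Reg genes and in 5 lists of cell type markers, filled symbols for conventionalized (CV) and open symbols for germ-free (GF) animals, by littermate pair. The Reg share (0.0542 to 0.598% in CV, 0.00304 to 0.0144% in GF) and the enteroendocrine share do not overlap between the groups, while the shares of the other 4 lists do.

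Reg1 is abundant in the pancreas, and markers of pancreatic acinar cells were at 0.0121 to 0.0156% of conventionalized and 0.0125 to 0.0298% of germ-free libraries. Of 20 markers 3 were tested and 0 called by limma (1 had an unadjusted p under 0.05, and 0 passed with the block). The defining enzymes were near 0, with the carboxypeptidase Cpa1 at 0.140 and 0.248 CPM in conventionalized and germ-free animals on average, and Prss3 at 0 in every library. Leukocyte markers made up 0.00120 to 0.00538% of conventionalized and 0.00325 to 0.00636% of germ-free libraries, and 0 of 29 reached the minimum level. Il22, the transcript of the cytokine, was at 0 in every library of these sorted epithelial cells. Stromal and endothelial markers made up 0.00298 to 0.00785% of conventionalized and 0.0113 to 0.0186% of germ-free libraries. Of 13 markers 3 were tested, and all 3 had an unadjusted p under 0.05. By limma 1 was called lower and 0 higher, and 2 were lower with the block. The called gene was Pecam1 (CD31), at 4.999 ± 3.343 and 19.9 ± 5.686 CPM in conventionalized and germ-free animals. Its log2 fold change was -2.03 (SE 0.45, adjusted p = 0.0218 by limma). Pecam1 reached the minimum level only through the germ-free libraries. The shares of this list did not overlap between the groups, and the part of these cells in the Reg results was not tested. Tuft cell markers made up 0.00786 to 0.0986% of conventionalized and 0.0545 to 0.0858% of germ-free libraries, and limma called 0 of 8 (0 had an unadjusted p under 0.05, and 0 passed with the block).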

How the data were processed

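Messenger RNA was measured in 8 libraries prepared from 10 ng of RNA each and sequenced as 100 bp single-end reads, per the labels' protocols. The submitters' processing notes name the build mm10 and the tools STAR 2.4.2a, Trimmomatic 0.36, DESeq2 1.12.4 and R 3.3.1, and the series' design text names Salmon and edgeR. Each deposited value is a signal per gene that the authors had normalized between libraries, with raw counts not used here. In genes with 1 annotated transcript 100.0% of the values above 0 were whole multiples (tolerance 0.02) of a step per library, against 9.1% in genes with several transcripts, so whole reads were not recovered and no count test was run. Approximate reads are the deposited value divided by the step.

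Of 48440 genes, 48058 matched a symbol, and 0 columns were left unmapped to a sample. TMM factors (30% and 5% trimmed) were applied to CPM, which were tested as log2(CPM + 0.5) with limma 3.58.1 in R 4.3.3 (trend, robust, condition as the only term). CPM carries no information on depth, and PCR reads are not independent molecules. The labels name the littermate pairs, so the pair was fitted as a block as an alternative. The correlation of deviations within pairs was 0.14, -0.16, 0.31 and -0.01 for A to D. The labels do not name the lane of a library.

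The members, lists and tests were chosen with earlier results of these data known. In each pathway list the called genes, or else the gene of lowest p, are named, except where an item is not reported here. Myd88, Stat3, Il22ra1, Extl3, Lyz1, Spink1, Lypd8, the genes called only with the block, the motifs and 5 of the 6 ratios between members were added after the values were seen. Length scaling used the transcript with the longest coding sequence in GENCODE M21. Promoter windows are from RefSeq and all 4 members matched. Sequences were aligned with Biopython 1.88.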

Additional observations from a re-analysis of the deposited data

Results flagged for a closer look

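Among 54 groups of 4 libraries checked, 5 had a library far from the other 3. The cut-off gives about 1 in 20 for values that follow a normal distribution. Values in CPM, and above all counts of a read or so, need not follow it, so the rate to expect here is not known. The germ-free library of pair A held 35.4 CPM of Reg1, against at most 2.99 CPM in the other germ-free libraries. The conventionalized library of pair A held 52.2 CPM of Reg3a, against at most 10.4 CPM in the other conventionalized libraries. The remaining 3 concern counts of a read or so: Reg2 was at 0 CPM in the conventionalized library of pair D and at 0.0893 CPM in the germ-free library of pair B alone of its group, and Reg3d at 0.128 CPM in that same germ-free library alone of its group.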

How the results depend on the processing

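Reg3b, Reg3g and Reg1 kept a positive fold change under all alternatives run. When 1 library was left out, log2 fold changes ran from 6.32 to 7.74 for Reg3b, 3.87 to 5.22 for Reg3g, 2.42 to 4.16 for Reg1 and -0.20 to 1.18 for Reg3a, and the difference in the Reg3b to Reg3g ratio from 2.07 to 2.83. Without germ-free animal C alone, Reg3b (6.32, adjusted p = 0.0622 by limma) and Reg3g (4.25, adjusted p = 0.0995 by limma) missed the threshold. Reg3b also missed it with no filter (7.01, adjusted p = 0.0538) and without the 2 libraries that stood apart (5.67). Leaving those out gave -0.54 for Reg3a, 1.91 for Reg1 and 2.08 for the ratio (exact permutation p = 0.1). The ratio had an exact permutation p of 0.0571 on leaving out any one conventionalized animal. Quality weights gave 1.87 for Reg1; weights gave no value for Reg3a, and weights, scaling and filters none for the ratio. With the littermate pair as a replicate block Reg1 passed (3.02, adjusted p = 0.00652), and the ratio (2.45) could not fall under an exact p of 0.125; the block changed no other member's call. Genes called higher numbered 117, and 263 with upper-quartile scaling, 45 with no filter, 765 with quality weights, 812 with the block, 235 without those libraries and 14 to 410 with 1 library left out. Genes called lower numbered 378, 608 with quality weights and 151 to 372 with 1 library left out. Pathway genes called higher numbered 4, and 2 with pseudocount 0.1, 1 with no filter, 2 with a minimum of 1 CPM, 14 with quality weights, 12 with the block and 0 to 5 with 1 library left out; the minimum of 1 CPM gave 1 called lower, against 0. The last alternatives, on pathway genes, were chosen after seeing the data. The causes were not tested. Depth limits Reg1 and Reg3b most in germ-free pairs C and D, with about 5 to 33 reads.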

Other observations

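Spink1, a secreted trypsin inhibitor listed among the pancreatic markers, had the same high pair as Reg1 and Reg3a. It was at 94.8, 6.54, 11.8 and 15.2 CPM in conventionalized animals A to D, and at 54.4, 9.53, 1.26 and 4.04 CPM in germ-free animals A to D (adjusted p = 0.381 by limma). Both animals of pair A were above the other 6 animals. Lypd8, a surface protein that keeps flagellated bacteria from the colonic epithelium, averaged 2224 ± 1837 CPM with conventionalization and 746 ± 374 CPM without, a log2 fold change of 1.46 (adjusted p = 0.136 by limma). Both genes were picked after their values were seen.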
